A study of Mus musculus with 32 samples.

Results

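The genes described here encode the protein subunits of the cytosolic ribosome. They were picked by gene symbol alone, as every symbol made of Rpl or Rps with a number, the acidic stalk genes Rplp0, Rplp1 and Rplp2, and Rpsa, while S6 kinase genes and the Rps19 binding protein were left out. This gave 84 of the 24952 genes in the deposited tables. Libraries came from the tibialis anterior (TA) muscle of male wild-type C57BL/6JRj mice, in which α-bungarotoxin marked the neuromuscular junction (NMJ) and a laser cut out synaptic regions (NMJ) or neighboring regions without a synapse (xNMJ). There were 32 libraries, with 8 of each region from mice aged 10 months (10m xNMJ and 10m NMJ) and 8 of each from mice aged 30 months (30m xNMJ and 30m NMJ). All mice were housed singly on an AIN93M diet, and the labels name no transgene and no drug for these groups. The labels number the replicates within each group but do not name the mouse behind a library, so p values measure the spread between these samples. Total counts per library ran from 4026648 to 16516788. The library 30m xNMJ replicate 5 stood apart, with markers of synaptic nuclei at 0.0745% of counts against at most 0.00845% in the other libraries of its group, and 10m NMJ replicate 8 had an insert size of 52 bases in the labels, against 109 or more in the rest of its group. A region holds several cell types, so fewer cells of a type and less RNA per cell cannot be told apart.

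The ribosome joins a small subunit, which reads the mRNA, to a large subunit, which forms peptide bonds and releases the growing chain through an exit tunnel. Most ribosomal proteins are present once per ribosome, the stalk proteins Rplp1 and Rplp2 being exceptions, and their mRNAs share a pyrimidine tract at the 5′ end, the terminal oligopyrimidine (TOP) motif, through which mTORC1 controls their translation. A few subunits have a second gene, and the best known in muscle is Rpl3l, a form of Rpl3 that is largely restricted to skeletal muscle and heart.

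To show the tract that the family is known for, 30 bases around annotated start sites of RefSeq (GRCm38.p6) are given 5′ to 3′, beginning 10 bases before the start. Capitals mark an unbroken run of at least 5 C or T that opens with C at the start base. The tract is shown first in Rps6, Rps27, Rps21, Rplp2 and Rpl38, and then follow Rpl3l, Rpl36al, Rpl10 and Rps7, whose annotated start lacks such a run and to which later results refer.
Rps6, chr4:86857348-86857377, minus strand: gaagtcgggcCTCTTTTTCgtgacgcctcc
Rps27, chr3:90213629-90213658, minus strand: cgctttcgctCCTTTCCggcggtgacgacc
Rps21, chr2:180257369-180257398, plus strand: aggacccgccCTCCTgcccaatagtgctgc
Rplp2, chr7:141447641-141447670, plus strand: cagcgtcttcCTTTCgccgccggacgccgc
Rpl38, chr11:114668570-114668599, plus strand: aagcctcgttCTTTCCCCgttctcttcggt
Rpl3l, chr17:24727816-24727845, plus strand: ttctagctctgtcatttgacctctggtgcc
Rpl36al, chr12:69184048-69184077, minus strand: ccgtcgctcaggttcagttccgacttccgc
Rpl10, chrX:74270806-74270835, plus strand: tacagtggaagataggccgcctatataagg
Rps7, chr12:28635934-28635963, minus strand: cggtttccacccacctacttccgctgtccc

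The RefSeq table held 76 start sites for 64 of the genes. The run was present at 13 of these starts (17.1%), against 823 of 32851 starts of all genes (2.51%). The letters CCGGAA, searched on both strands from 250 bases before to 50 bases after the start, were found at 36 of the 76 starts (47.4%), against 14.9% of all starts. An annotated start can lie a few bases away from the true one, so that a missing run says only that these letters are not at this base.

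In terms of TPM, which is scaled for transcript length and so allows genes to be ranked, the family spanned a wide range. Rpl41, the smallest protein of the large subunit, had the highest mean over the groups with 2633 TPM, followed by Rps29 with 2497 TPM and Rpl36 with 2072 TPM. At the lower end were Rpl3 with 74.8 TPM and Rpl7l1 with 16.1 TPM. Rpl39l, the copy of Rpl39 known from testis, had no count in 22 of the 32 libraries and at most 0.885 CPM (counts scaled to library size with TMM factors). It was the single gene of the family that did not reach 1 CPM in 8 libraries, so that 83 genes were tested. According to GENCODE M21, the 84 genes lay on 19 chromosomes, and 83 were protein-coding, while Rpl37rt was a transcribed processed pseudogene. Of the protein-coding ones, 66 shared 0.0% (rounded) of their 31-base stretches with protein-coding transcripts of other listed genes. Transcripts of other types, such as that of Rpl37rt, were not searched. Sharing was largest for Rpl13a (45.5% of its 31-base stretches), Rplp2 (33.1%) and Rpl36al (22.1%, all with Gm49383), whose values are therefore less certain.

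All 84 genes combined took up 2.06% (lowest), 2.90% (median) and 3.75% (highest) of the counts in 10m xNMJ libraries. The same 3 values were 2.68%, 3.49% and 3.71% for 10m NMJ, 2.40%, 2.98% and 3.35% for 30m xNMJ, and 2.80%, 3.85% and 4.81% for 30m NMJ. The medians were higher in NMJ than in xNMJ at both ages, and the groups overlapped at both ages. By TPM, the xNMJ medians were 5.71% (10m) and 5.78% (30m), and the NMJ medians 6.34% and 7.46%.

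**Figure D1:**
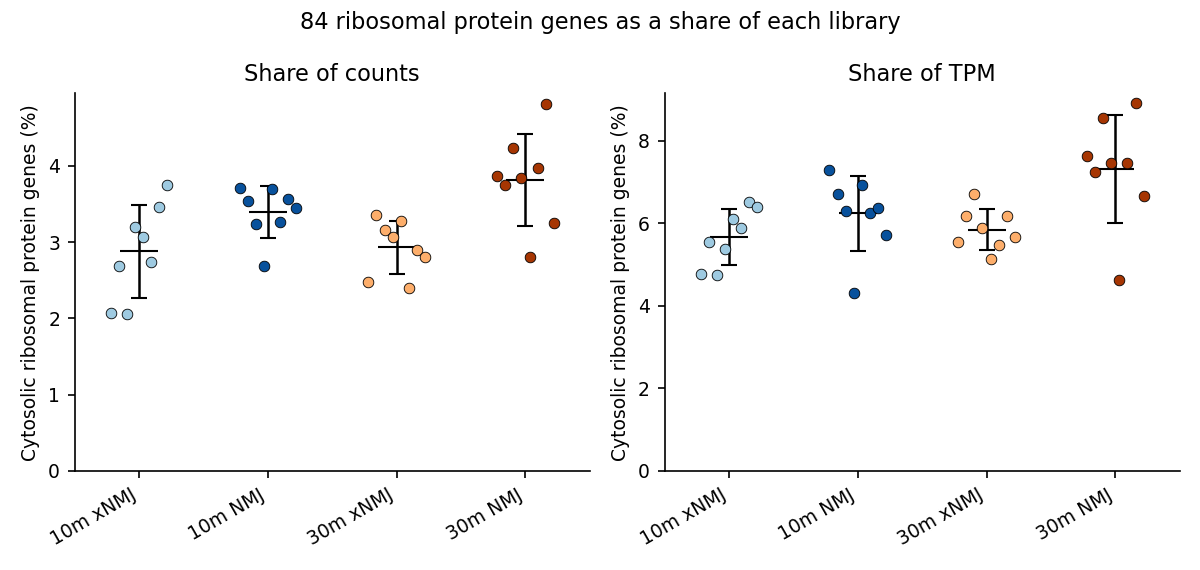
Each point is a library, and the vertical axes give the summed counts (left) or TPM (right) of the 84 ribosomal protein genes as a percentage of the library total, with the group mean and SD as bar and whiskers. NMJ medians of the count share, 3.49% and 3.85%, lie above xNMJ medians of 2.90% and 2.98%, and the points of the groups overlap.

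To ask which ribosomal protein genes differ between synaptic and extra-synaptic regions, NMJ was compared with xNMJ at each age with the edgeR quasi-likelihood test on TMM-scaled counts. At 10 months, 16 of the 83 genes were lower in NMJ and 0 were higher at an adjusted p under 0.05, while 5.05% of all 13990 tested genes were called lower and 6.50% higher. At 30 months, 10 were lower and 0 were higher, against 4.25% and 5.0% of all genes. The median log2 fold change of the 83 genes was -0.31 at 10 months (interquartile range -0.45 to -0.14) and -0.23 at 30 months (-0.38 to -0.11), whereas that of all tested genes was 0.00 and -0.01. Values below 0 were found for 71 genes at 10 months, 73 at 30 months and 69 at both. Without adjustment, p was under 0.05 for 1 higher gene at 10 months and 0 at 30 months, and DESeq2 called 1 and 0 higher. With insert size as a covariate 7 genes were lower at 10 months, with a median of -0.34, and 434 of all 13990 genes. Without the filter on low counts 5 were lower, with a median of -0.24, and 640 of all 24167 genes. At 30 months 3 were lower without the filter (median -0.17, 515 of all genes). When only the compared groups were fitted, 5 were lower (median -0.24, 490 of all genes). Without 10m NMJ replicate 4, 8 genes were lower at 10 months, and 610 of all 13903 genes. In the older mice 4 were lower without 30m NMJ replicate 8 (538 of all 13855 genes) and 5 without 30m xNMJ replicate 2 (503 of 13966). There were 6 lower without 30m xNMJ replicate 3 (585 of 13947), 30m xNMJ replicate 4 (525 of 13950) or 30m NMJ replicate 4 (497 of 13866).

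The direction of these calls belongs to the TMM scale. TMM factors ranged from 0.686 to 1.02 in xNMJ and from 1.12 to 1.35 in NMJ libraries, and with library totals in their place the median of all tested genes became 0.56 in place of 0.00 (10 months) and 0.61 in place of -0.01 (30 months). On that scale 13 ribosomal protein genes (15.7%) were higher and 0 lower in 10m NMJ, where 19.0% of all genes were higher and 1.5% lower. In 30m NMJ 21 (25.3%) were higher and 0 lower, where the values for all genes were 19.2% and 0.543%. On log2(TPM + 1), limma called 13 higher and 1 lower at 10 months, against 19.2% and 1.69% of all genes, and 30 (36.1%) higher and 0 lower at 30 months, against 25% and 0.429%. The share of members called higher was thus below that of all genes at 10 months and above it at 30 months on both scales. The members' median minus that of all genes was -0.32 on library totals and -0.23 on TPM at 10 months, and -0.20 and -0.13 at 30 months, so that it lay below the typical tested gene on each scale.

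**Figure D2:**
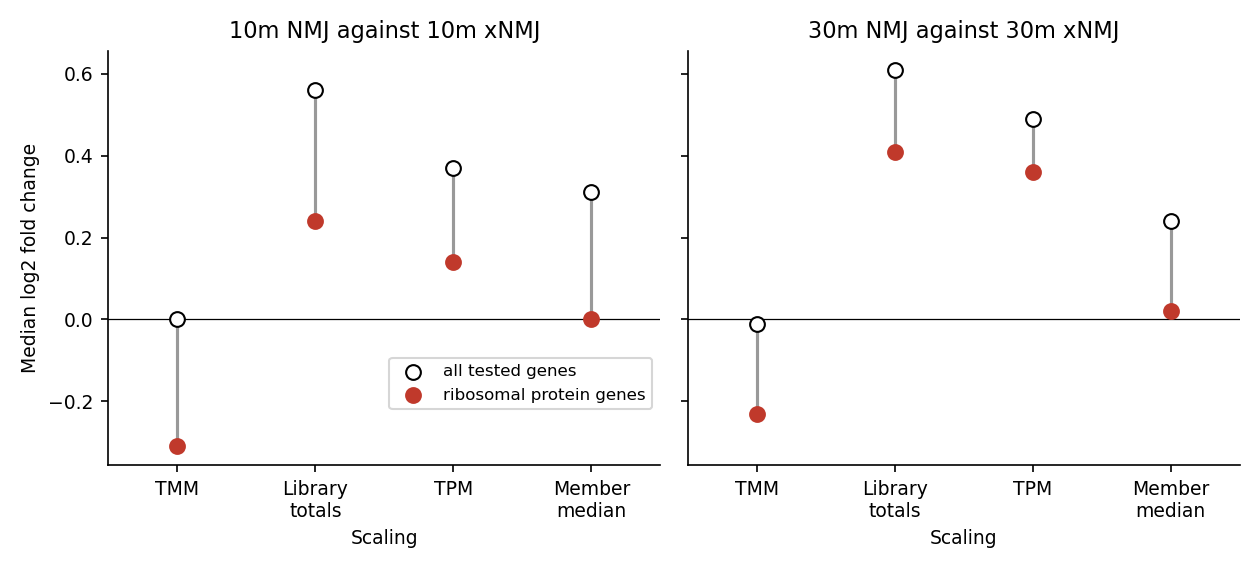
Median log2 fold change of NMJ against xNMJ for ribosomal protein genes (filled) and all tested genes (open) on the vertical axis, with 4 scalings on the horizontal axis: TMM factors, library totals, log2(TPM + 1), and the median of the ribosomal protein genes themselves. At 10 months the members' median is -0.31 with TMM and 0.24 with library totals, so the sign flips, and it lies below the open point in every column.

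Ribosomal protein mRNAs are abundant, and other abundant genes were more often called lower than higher in NMJ on the TMM scale. Among the 2782 tested genes whose mean lay in the members' range of 33.5 to 1197 CPM, 14.8% were called lower at 10 months and 13.2% at 30 months, with medians of -0.15 and -0.16, while 183 and 164 genes were called higher. Among the 440 other genes between 178 CPM, the members' 10th percentile, and the members' maximum, 32.5% and 30.9% were lower, with medians of -0.32 and -0.42, and 33 and 28 genes were called higher. This second range was set after the values were seen. The share of called members, 19.3% at 10 months and 12.0% at 30 months, was above that of all genes at both ages, above that of the 2782 genes at 10 months and below it at 30 months, and below that of the 440 genes at both ages.

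**Figure D3:**
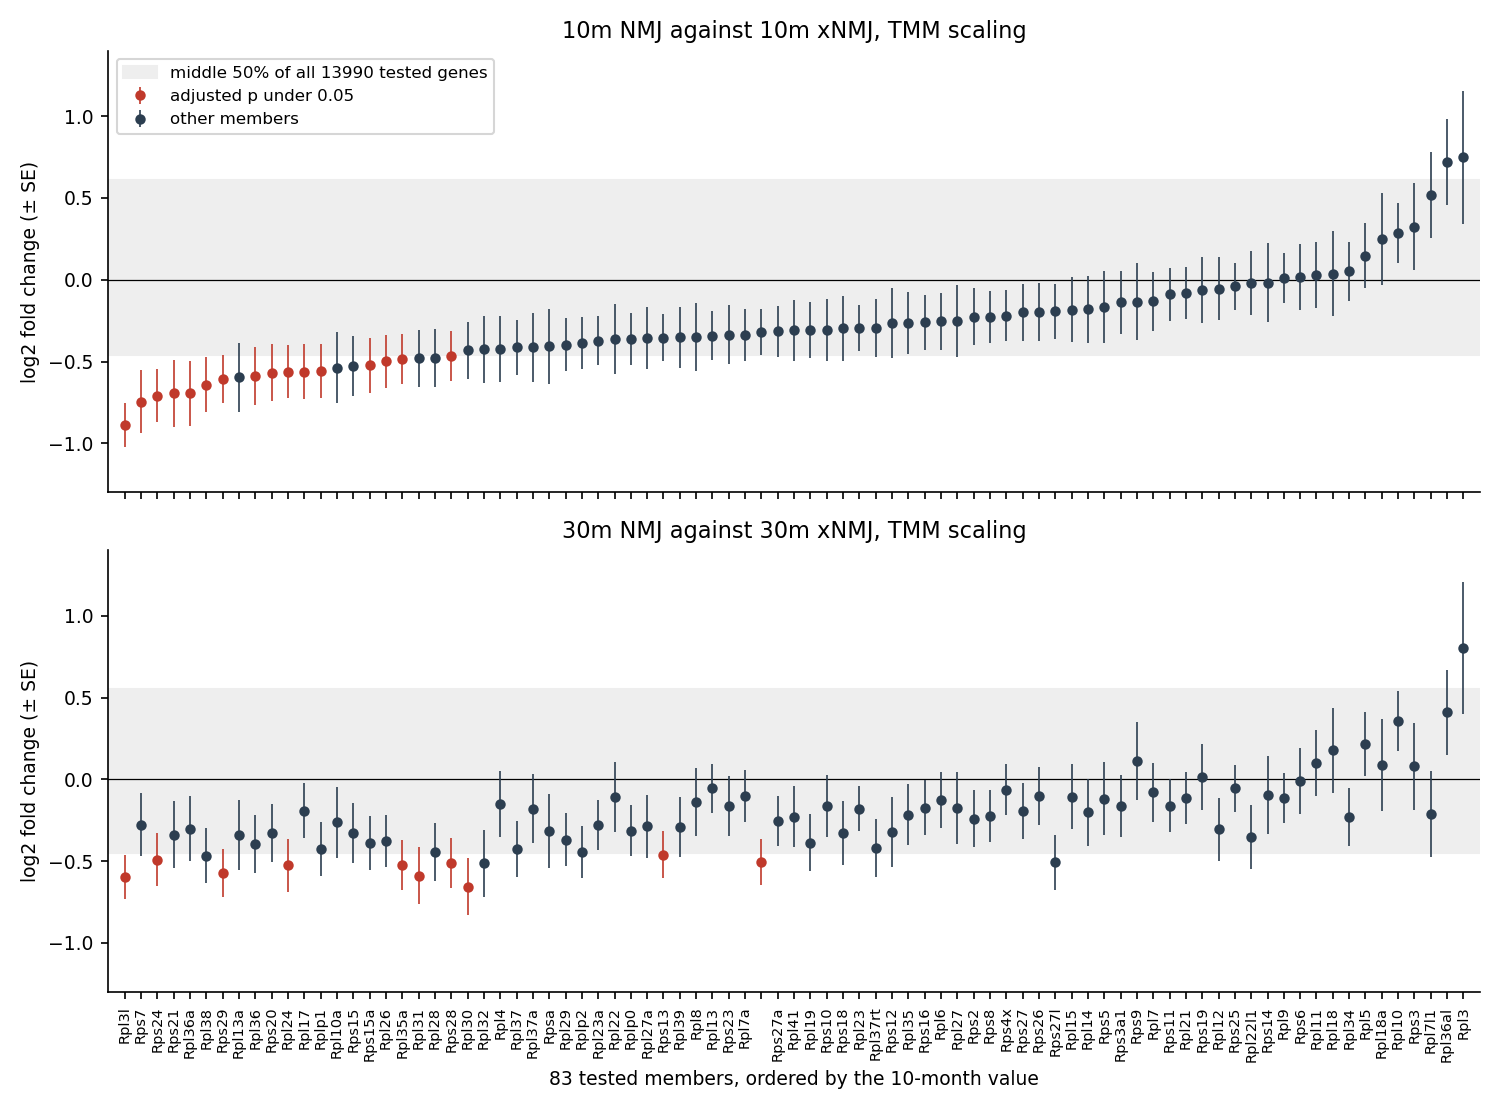
Log2 fold changes (TMM scale) with SE for the 83 tested genes at 10 months (top) and 30 months (bottom), in the order of the 10-month values, with 1 gene left without its name. Red points passed an adjusted p under 0.05 (edgeR), the gray band holds the middle 50% of all tested genes, and most points lie below 0 at both ages, a direction that library totals turn around for the median.

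Rpl3l (ENSMUSG00000002500, chromosome 17 from 24727820 to 24736143 of GRCm38), the striated-muscle form of the large-subunit protein uL3, stood lowest at 10 months. At 10 months it ran from 432 to 806 CPM (median 537) in xNMJ libraries and from 239.6 to 324 CPM (median 309) in NMJ. At 30 months it ran from 352 to 561 CPM in xNMJ (median 412) and from 219 to 312 CPM in NMJ (median 306). The regions did not overlap at either age, and no other member was free of overlap, compared with 3.42% of all tested genes at 10 months and 2.46% at 30 months. On the TMM scale Rpl3l was lower in NMJ by a log2 fold change of -0.89 ± 0.14 (SE) at 10 months (edgeR, adjusted p = 1.68e-05) and -0.60 ± 0.14 at 30 months (edgeR, adjusted p = 0.00299), while on library totals it was -0.35 and 0.03. Each of the fits without 1 library kept Rpl3l past the threshold at both ages.

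Rps24, a small-subunit protein mutated in Diamond-Blackfan anemia, and Rps29, a zinc-binding protein of the small-subunit head, were lower at both ages on the TMM scale. Rps24 ran from 391 to 691 CPM (median 506) in 10m xNMJ and from 229 to 417 CPM (median 325) in 10m NMJ, with a narrow overlap. Its log2 fold change was -0.71 ± 0.16 at 10 months (edgeR, adjusted p = 0.00258) and -0.49 ± 0.16 at 30 months (edgeR, adjusted p = 0.0487). The call at 30 months held in 10 of 32 fits that each left out 1 library.
Rps29 medians were 964 CPM (xNMJ) and 620 CPM (NMJ) at 10 months, and 1038 and 702 CPM at 30 months. Its highest NMJ libraries, with 895 CPM at 10 months and 836 CPM at 30 months, reached into the xNMJ range, which began at 808 and 789 CPM. The log2 fold changes were -0.61 ± 0.15 and -0.57 ± 0.15 (edgeR, adjusted p = 0.00419 and 0.00787). On library totals both genes were slightly below 0 at 10 months (-0.17 for Rps24 and -0.06 for Rps29) and above 0 at 30 months (0.16 and 0.07).

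Rps7, Rps21 and Rpl36a completed the 5 lowest called values at 10 months, and none of them was called at 30 months. Rps7, which also binds the p53 regulator MDM2, ran from 209 to 360.2 CPM in 10m xNMJ and from 83.2 to 256 CPM in 10m NMJ, and its log2 fold change reached -0.75 ± 0.19 (edgeR, adjusted p = 0.00715). Rps21 had medians of 309 and 176 CPM with a difference of -0.69 ± 0.20 on the log2 scale (edgeR, adjusted p = 0.0203). With the insert size of the labels as a covariate, these calls were lost for Rps7 (adjusted p = 0.0545), Rps21 (0.153) and Rpl36a (0.0516) in edgeR. At 30 months, Rpl30, which sits at the joint between the subunits, was lowest at -0.66 ± 0.17 (edgeR, adjusted p = 0.0111), with medians of 574 CPM in xNMJ and 332 CPM in NMJ. Rpl31, a protein at the tunnel exit, followed Rpl3l at -0.59 ± 0.17 (edgeR, adjusted p = 0.026). Of the 16 genes called lower at 10 months, 4 were above 0 on library totals, as were 9 of the 10 at 30 months, and none of them was called higher there. That scale moves all genes upward, to medians of 0.56 and 0.61, so these counts describe the scale.

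Calls at the 2 ages shared Rpl3l, Rpl24, Rpl35a, Rps24, Rps28 and Rps29, that is 6 of the 16 genes at 10 months (37.5%) and 6 of the 10 at 30 months (60.0%). No such overlap over all tested genes is given beside these percentages, so they describe the members alone. In total 20 genes were called at one age or the other. With insert size as a covariate in edgeR, Rpl3l, Rpl24 and Rps29 passed at both ages, whereas Rpl35a (adjusted p = 0.0706) and Rps28 (0.0856) did not at 10 months, nor Rps24 (0.0671) at 30 months. The interaction of age and region was called for 0 of the 83 genes and for 0 of all 13990 genes in edgeR. Its median over the 83 genes was 0.06. An unadjusted p under 0.05 was found for 0 members and for 5.06% of all genes (edgeR). DESeq2 also called 0 members, beside 2 higher and 8 lower among all genes.

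Calls were found in both subunits. Among large-subunit genes without the paralog copies, 8 of 46 were lower at 10 months (median -0.36) and 4 of 46 at 30 months (median -0.23). Among small-subunit genes, 7 of 31 (median -0.26) and 5 of 31 (median -0.23) were lower. These counts are on the TMM scale of edgeR, on which the medians are negative. For large-subunit genes they amount to 17.4% and 8.7%, and for small-subunit genes to 22.6% and 16.1%. Called lower were 5.05% and 4.25% of all genes and 14.8% and 13.2% of the 2782 genes in the members' range of mean CPM. Of the 440 other abundant genes, 32.5% and 30.9% were lower, above both subunits.

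By position in the ribosome, the stalk proteins Rplp0, Rplp1 and Rplp2, which recruit elongation factors, had log2 fold changes of -0.36, -0.56 and -0.39 at 10 months, of which Rplp1 passed (edgeR, adjusted p = 0.0229). Rplp1 medians at 10 months were 855 CPM (xNMJ) and 556 CPM (NMJ), and on library totals its log2 fold change was 0.00. At 30 months the 3 genes had -0.31, -0.43 and -0.45, and none passed in edgeR. The exit-tunnel genes Rpl4 and Rpl39 had -0.42 and -0.35 at 10 months and did not pass, while Rpl17 was lower at 10 months, with -0.56 ± 0.17 (edgeR, adjusted p = 0.0228) and -0.02 on library totals, a call that was lost with insert size as a covariate (edgeR, adjusted p = 0.0606).
The mRNA-entry genes Rps2, Rps3 and Rps9 had -0.23, 0.33 and -0.13 at 10 months, and none passed at either age in edgeR on the TMM scale. On library totals Rps3 was higher at 10 months by 0.88 ± 0.27 and Rps9 at 30 months by 0.73 ± 0.24 (edgeR, adjusted p = 0.0185 and 0.0285). Rpl5 and Rpl11, which carry 5S rRNA into the large subunit and can hold back MDM2, were among the few genes above 0 at both ages on the TMM scale, with 0.15 and 0.03 at 10 months and 0.22 and 0.10 at 30 months. Neither passed in edgeR on that scale. On library totals Rpl5 was higher at both ages, by 0.70 ± 0.20 and 0.85 ± 0.20 (edgeR, adjusted p = 0.0131 and 0.00319), and Rpl11 at 30 months, by 0.72 ± 0.21 (edgeR, adjusted p = 0.0148).

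Rps6, the protein that S6 kinases phosphorylate, had xNMJ medians of 217 CPM (10m) and 257 CPM (30m) beside NMJ medians of 215 and 263 CPM. Its ranges overlapped widely, and the log2 fold changes between regions were 0.02 ± 0.20 at 10 months and -0.01 ± 0.20 at 30 months on the TMM scale. On library totals it was higher in NMJ, by 0.57 ± 0.20 and 0.62 ± 0.20 (edgeR, adjusted p = 0.0402 and 0.0268). Rps19, another Diamond-Blackfan gene, had -0.06 and 0.02, and Rps27a, which is made as a fusion with ubiquitin, had -0.32 and -0.25. Rpsa, which doubles as a laminin receptor, had -0.41 and -0.32. None of these 3 passed in edgeR on the TMM scale, and on library totals Rps19 was higher at 30 months by 0.64 ± 0.21 (edgeR, adjusted p = 0.0258). The most abundant genes called at neither age were Rpl41, Rplp2, Rpl37a, Rps27 and Rps14, with values between -0.41 (Rpl37a) and -0.02 (Rps14) at 10 months. Rpl41, the top gene, spanned 883 to 1829.9 CPM in xNMJ at 10 months, and 677 to 1215 CPM in NMJ.

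To see which members stood apart from the rest of the family, counts were scaled to the median of the ribosomal protein genes. This test was added after the first results were seen. On this scale 75 of the 83 genes lay within 0.5 of 0 at 10 months and 80 at 30 months. At 10 months, 5 genes (6.0%) were above the family and 4 (4.8%) below in edgeR, while 9.91% of all tested genes were above and 2.39% below. Rpl3 was above by 1.13 ± 0.38 (adjusted p = 0.043), Rpl36al by 1.09 ± 0.25 (0.00281), Rps3 by 0.73 ± 0.25 (0.0471), Rpl10 by 0.59 ± 0.18 (0.0268) and Rpl5 by 0.52 ± 0.17 (0.045), all adjusted p of edgeR. The genes below were Rpl3l by -0.58 ± 0.16 (0.0115), Rps7 by -0.50 ± 0.17 (0.0452), Rps24 by -0.41 ± 0.12 (0.0226) and Rpl38 by -0.37 ± 0.12 (0.0443). Rpl38, a regulator of Hox mRNA translation, was named after its value was seen. At 30 months, Rpl10, which completes the large subunit, was the 1 gene above the family, by 0.61 ± 0.18 (edgeR, adjusted p = 0.0282), and 0 were below, against 6.98% and 1.84% of all genes. Its xNMJ medians were 259.9 CPM (10m) and 232 CPM (30m) beside NMJ medians of 335 and 326 CPM, with overlap at both ages. With insert size as a covariate, only Rpl36al (adjusted p = 0.00753) and Rpl3l (0.0356) passed at 10 months in edgeR, and Rpl10 (0.0494) at 30 months. The calls lost in that fit had log2 fold changes of 0.98 (Rpl3), 0.58 (Rps3), 0.55 (Rpl10) and 0.50 (Rpl5). For the genes below the family they were -0.32 (Rps7), -0.36 (Rps24) and -0.31 (Rpl38). Of the 9 calls at 10 months, those of Rpl3l, Rpl36al and Rps24 held in all 32 fits without 1 library, and the others in 15 to 29. Across the 82 genes with a known transcript length, which are not independent replicates, log2 fold change and log2 length had an r of 0.305 at 10 months and 0.326 at 30 months, and the part of length in the result was not tested.

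A share within a library is free of the scaling between libraries. The TPM of a paralog copy was therefore given as a percentage of copy and parent, and 5 pairs were compared between groups with two-sided exact permutation tests of the group means, adjusted over 20 tests. Rpl36al, an autosomal copy of the X-linked Rpl36a, held 44.3% to 69.1% in 10m xNMJ (median 53.6%) and 69.7% to 86.5% in 10m NMJ (median 77.2%), with no overlap. The mean rose from 54.6% ± 8.34 to 77.2% ± 5.36 (SD, n = 8; exact permutation p = 0.00016, the smallest this test can give; adjusted p = 0.0031), and it did so in each of 32 repeats without 1 library. At 30 months it was 59.1% ± 12.6 in xNMJ and 71.2% ± 7.32 in NMJ (SD, n = 8), with overlap, and did not pass (exact permutation p = 0.035, adjusted p = 0.12). The copy (ENSMUSG00000049751, chromosome 12 from 69182731 to 69184083) had a median of 393 TPM (xNMJ) and 915 TPM (NMJ) at 10 months, while the parent (ENSMUSG00000079435, chromosome X from 134585654 to 134588062) had 313 and 271 TPM at that age. Part of the Rpl36al sequence is shared with Gm49383, as given above, and reads from the pair cannot be told apart there.

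Rpl3l was the larger partner of Rpl3 in every group. It held 82.4% to 99.3% in 10m xNMJ (median 94.8%) and 71.8% to 89.3% in 10m NMJ (median 84.7%). At 30 months it held 78.6% to 97.4% in xNMJ (median 90.0%) and 62.6% to 84.4% in NMJ (median 79.5%). NMJ medians were lower, and the ranges overlapped at both ages, with the NMJ median above the lowest xNMJ library. The mean share fell by 10.5 percentage points in the younger mice (exact permutation p = 0.0031, adjusted p = 0.026) and by 12.7 points in the older (exact permutation p = 0.0039, adjusted p = 0.026). The call at 10 months held in each of 32 repeats without 1 library, and that at 30 months in 26, being lost without 30m xNMJ replicate 4, 6 or 8 or 30m NMJ replicate 3, 4 or 7, where the adjusted exact permutation p reached 0.057 at most. Rpl3 (ENSMUSG00000060036, chromosome 15 from 80077791 to 80091868), the ubiquitous form, had xNMJ medians of 29.4 TPM (10m) and 41.8 TPM (30m) beside NMJ medians of 72.9 and 128.7 TPM. In the edgeR fit on the TMM scale Rpl3 had log2 fold changes of 0.75 ± 0.41 and 0.80 ± 0.41 and did not pass (adjusted p = 0.275 and 0.257), and on library totals it was higher by 1.30 ± 0.41 and 1.43 ± 0.41 (adjusted p = 0.0237 and 0.014).

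Rpl7l1 held 2.11% ± 0.885 (xNMJ) and 3.38% ± 0.845 (NMJ) of its pair with Rpl7 at 10 months (SD, n = 8; exact permutation p = 0.014, adjusted p = 0.057). In NMJ it then stood at 2.32% ± 0.611 at 30 months (exact permutation p = 0.012 against 10 months, adjusted p = 0.057), so neither difference passed, although each did in 9 of 32 repeats without 1 library. With CPM in place of TPM the difference between ages in NMJ was -2.74 points and passed. Rpl22l1, whose product and Rpl22 regulate each other, held medians of 62.1% (xNMJ) and 67.2% (NMJ) at 10 months, then 69.5% and 63.6% at 30 months. Rps27l, a p53 target, held 49.7%, 48.0%, 47.8% and 44.9% in the same order. None of the comparisons of the Rpl22l1 and Rps27l pairs passed, with differences between -5.07 and 8.29 percentage points. The pairs Rpl3l and Rpl36al were not called between ages, where the adjusted exact permutation p was 0.19 or above.

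**Figure D4:**
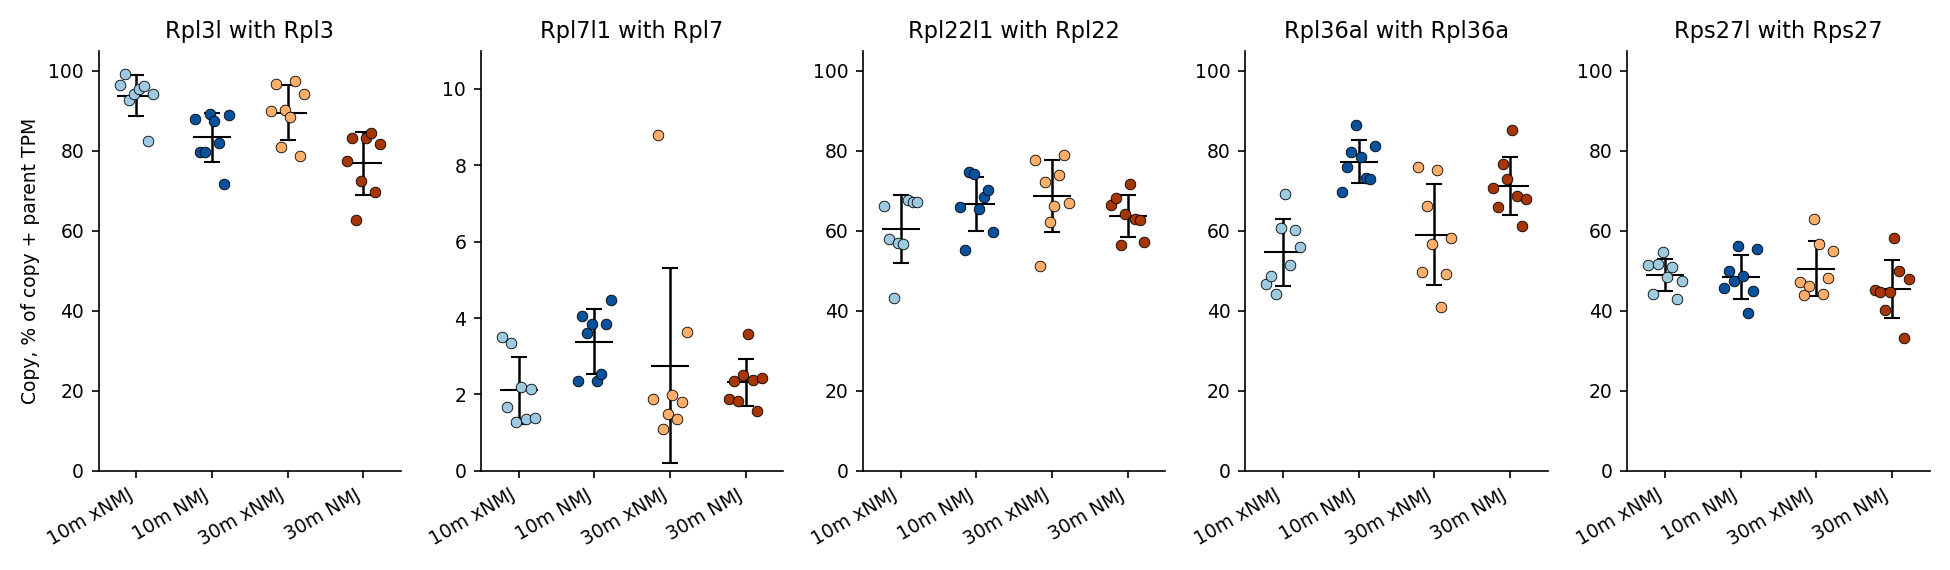
Copy TPM as a percentage of copy plus parent TPM (vertical axis) for 5 pairs, with 1 point per library and the group mean and SD as bar and whiskers; the axis for Rpl7l1 ends near 10%. In 10m NMJ the Rpl36al points lie at 69.7% or above and in 10m xNMJ at 69.1% or below, and the Rpl3l mean of NMJ lies lower than that of xNMJ at both ages, with overlapping points.

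The question of how far the genes shift together was addressed over libraries of the same group. After the group means were removed, the median r of the 3403 pairs of members over the 32 libraries was 0.492, and 95.2% of the pairs were above 0. For the 2782 genes in the members' range of mean CPM the median r was 0.0569, and for the 440 other abundant genes it was 0.154. All pairs share the libraries with their depth and TMM factors, so these values are descriptions. The mean log2 CPM of the 83 genes varied between libraries of a group with an SD of 0.245, which compares with 0.352 for the median single member. In the 2782 genes these values were 0.116 and 0.508, and in the 440 genes 0.158 and 0.402.

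Single libraries moved almost the whole family. In 10m xNMJ replicate 8, 81 of the 83 genes lay above their group median, and in 10m xNMJ replicate 3 only 7 did. In 30m NMJ replicate 7, 79 genes lay above and the median deviation was 0.40 (log2), whereas in 30m NMJ replicate 8, 4 genes lay above and the median deviation was -0.30. In 30m xNMJ replicate 8, 3 genes lay above, with a median deviation of -0.38. The median over all genes stayed between -0.25 and 0.11 in each library. 

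Age was compared within each region. The older mice had also spent longer on the diet and in single cages, so age and this time cannot be told apart. In NMJ, 69 of the 83 genes were above 0 at 30 months against 10 months, with a median log2 fold change of 0.12 (interquartile range 0.03 to 0.22). In xNMJ, 62 were above 0, with a median of 0.09. The medians of all tested genes were 0.02 in NMJ and 0.04 in xNMJ. With library totals the xNMJ median was 0.02, with 46 genes above 0, and on log2(TPM + 1) it was 0.04, with 51 above 0, while the NMJ median was 0.15 and 0.22. Single libraries moved these medians on the TMM scale. The NMJ median was 0.05, with 53 genes above 0, without 30m NMJ replicate 7. The xNMJ median was 0.03 without 10m xNMJ replicate 1, 0.04 without 10m xNMJ replicate 3 or 30m xNMJ replicate 2 or 3, and 0.15 without 10m xNMJ replicate 8. Called were 0 genes in either region (edgeR), 2 and 1 had an unadjusted p under 0.05, and DESeq2 and limma on TPM also called 0. These 3 genes were Rpl13 (0.36) and Rps4x (0.35) in NMJ and Rpl3l (-0.35) in xNMJ, named after their values were seen. Of all 13990 genes, 0 were called between ages in NMJ and 0.0357% higher and 0.00715% lower in xNMJ. Markers of other cells also moved with age in xNMJ, and their part was not tested. All 5 red blood cell markers were above 0 there, with a median of 1.51. In edgeR 4 of them had an unadjusted p under 0.05 and 0 were called. Of 9 synaptic nuclei markers, 8 were above 0 and 1 was called higher. Their median share of counts did not rise, with 0.00671% in 10m xNMJ and 0.00617% in 30m xNMJ. The highest 30m xNMJ library, replicate 5, held 0.0745% and is the one that stood apart. The SD of the members' fold changes was 0.15 in NMJ and 0.14 in xNMJ, below their median SE of 0.18, whereas between regions it was 0.30 and 0.24, above the SE of 0.18.

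Other genes of the translation apparatus were read from lists. Of 19 further mRNAs known to carry a TOP motif, 1 was lower at 10 months and 1 lower and 1 higher at 30 months on the TMM scale of edgeR, with medians of -0.23 and -0.10. As a share of counts their direction was the opposite, with medians of 0.502% (xNMJ) and 0.588% (NMJ) at 10 months and 0.443% and 0.64% at 30 months. These and the following counts stand beside 5.05% lower and 6.50% higher among all genes at 10 months, and 4.25% and 5.0% at 30 months. Eef1a1, an elongation factor named after its value was seen, was higher at 30 months with 0.99 ± 0.23 (edgeR, adjusted p = 0.00308). Eef1a2, the form that replaces it in mature muscle, was lower by -1.78 ± 0.30 at 10 months and -1.12 ± 0.29 at 30 months (edgeR, adjusted p = 5.87e-05 and 0.00948), and its share of counts had log2 ratios of -1.24 and -0.44.
Of 33 initiation factor genes, 1 was higher and 2 were lower at 10 months, among them Eif3i with -0.95 ± 0.20 (edgeR, adjusted p = 0.00126), and 0 were higher and 1 was lower at 30 months. The initiation factors held a median of 0.465% (xNMJ) and 0.643% (NMJ) of counts at 10 months. Of 50 ribosome assembly genes, 0 were called at 10 months (edgeR, 3 with an unadjusted p under 0.05), and 1 was higher and 2 were lower at 30 months. Among 13 genes of mTORC1 and the S6 kinases, 1 was called. This was Rps6ka1, a p90 S6 kinase, with 0.926 ± 1.77 CPM (xNMJ) and 148.5 ± 49.3 CPM (NMJ) at 10 months (SD, n = 8), and it was higher at both ages (edgeR, adjusted p = 1.93e-06 and 0.000345). Of the 78 mitochondrial ribosomal protein genes, 7 were lower and 0 higher at each age, and their medians were -0.31 and -0.38 on the TMM scale, beside -0.31 and -0.23 for the cytosolic family. As a share of counts their medians at 10 months were 0.832% (xNMJ) and 1.01% (NMJ), which is the opposite direction.

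Markers of other cells moved with the regions, and their part in the differences was not tested. The 9 measured synaptic nuclei genes (Chrna1, Prkar1a and others) took up medians of 0.00671% (xNMJ) and 0.461% (NMJ) of counts at 10 months, with 8 of 9 higher in edgeR at each age and Prkar1a the most abundant. Schwann cell markers, led by Pmp22, held 0.00204% and 0.0476% (8 of 10 higher at each age). Fibroblast markers, led by Dcn, held 0.0282% and 0.198% (7 of 10 higher at 10 months and 6 at 30 months), and macrophage markers, led by Lyz2, held 0.00211% and 0.034% (5 of 9 higher at each age). Muscle fiber markers held 14.1% and 14.4% of counts at 10 months and 14.8% and 13.2% at 30 months, and on the TMM scale 6 and 7 of 12 were lower. Endothelial markers, led by Fabp4, held 0.0376% and 0.0367% at 10 months, with 1 and 4 of 9 lower at the 2 ages. Of 6 mast cell markers 4 were higher at each age, and Cpa3 was at 0 in most libraries. Of 8 pericyte and smooth muscle markers 1 was higher at each age and 2 were lower at 30 months, and of 5 muscle stem cell markers 1 was higher, while Myf5 was at 0 in most libraries. Of 3 adipocyte markers 1 was lower at each age, and Adipoq, Cidec, Lep and Cfd were at 0 in most libraries. None of 5 red blood cell markers, 1 axon marker and 1 lymphocyte marker was called in edgeR, and Nefh, Nefl, Prph, Gap43 and Nkg7 were at 0 in most libraries. Without 30m xNMJ replicate 5 and 10m NMJ replicate 8, the libraries that stood apart, 15 ribosomal protein genes were lower at 10 months and 7 at 30 months (edgeR). Their medians were -0.33 and -0.23, and of all 13859 genes 674 and 643 were lower.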

How the data were processed

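The authors captured regions by laser, made libraries from polyA RNA with SMART-Seq v4, trimmed single-end reads with Cutadapt 1.9.1 and quantified protein-coding transcripts of Ensembl with kallisto 0.43.1 on GRCm38. The deposited values are whole-number counts and TPM per gene, summed over transcripts by the authors. Strand was not marked. Counts were tested with edgeR 4.0.16 in R 4.3.3 (TMM factors, quasi-likelihood, all 4 groups in 1 fit, genes with at least 1 CPM in 8 libraries, two-sided, Benjamini-Hochberg over 13990 genes, threshold 0.05). Alternatives used DESeq2 1.42.0, limma 3.58.1 on log2 TPM, other scalings, insert size as a covariate, a replicate block and each library left out. Paralog shares were compared by exact permutation in Python 3.11.15 with numpy 2.4.6. Standard errors follow the sign ±. A count of 3 corresponds to 0.182 to 0.745 CPM. The steps were tested on simulated data.

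Members and lists were chosen with earlier results of these data known. Named were the 3 most abundant members, up to 4 called members with the largest rise or fall per comparison, all genes of the position and paralog lists, Rpsa, Rps6, Rps19 and Rps27a, the 5 most abundant members called in no region comparison, and up to 3 genes per further list by p at 10 months. Rpl10l, Rps4l and Rps27rt were not analysed here, a few genes that enter the counts are not reported here by name, and Rpl39l was too low for a share.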

Additional observations from a re-analysis of the deposited data

Results flagged for a closer look

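In 84 groups of 8 libraries, the gap between the most extreme library and its neighbor was set against the range, and 8 groups passed Dixon's 95% critical value, where chance passes about 1 in 20. The Rpl3l share in 10m xNMJ replicate 7 was 82.4%, with the next library at 92.6%. The Rpl22l1 share in 10m xNMJ replicate 3 was 43.1%, with the next at 56.8%. Ribosomal protein genes took 2.68% of counts in 10m NMJ replicate 4, with the next at 3.24%. The Rpl7l1 share was 8.79% in 30m xNMJ replicate 2 (next 3.64%) and 3.58% in 30m NMJ replicate 5 (next 2.5%). Rps7 stood at 402.1 CPM in 30m xNMJ replicate 1 (next 277.1 CPM). Rpl36al stood at 616.1 CPM in 30m NMJ replicate 5 (next 384.8 CPM), and Rpl30 at 562.0 CPM in 30m NMJ replicate 7 (next 369.1 CPM).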

How the results depend on the processing

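Library totals and the scaling to the family were chosen after seeing the data. The number of genes higher in 10m NMJ was 1 with the replicate block and with DESeq2 (Rpl36al), 13 with limma on TPM (pseudocount 1 or 0.1) and 13 on library totals. The number lower was 5 without a filter on low counts, 7 with insert size, 1 with limma on TPM (either pseudocount) and 0 on library totals. The median was -0.24 without the filter, -0.34 with insert size, 0.14 with limma and 0.24 on library totals. At 30 months, 30 were higher with limma (either pseudocount) and 21 on library totals. Lower were 3 without a filter, 5 with only the groups compared, 0 with limma and 0 on library totals. Medians were -0.17 without a filter, -0.24 with only the groups compared, 0.36 with limma and 0.41 on library totals. The cause was not tested, other than that TMM factors differ between regions.

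Of all 83 genes, 70 were above 0 on library totals at 10 months and 82 at 30 months, against 12 and 10 on the TMM scale. Among the genes called lower on the TMM scale and reported here, those that turned at 10 months were Rps15a 0.01, Rpl35a 0.06, Rpl26 0.05 and Rps28 0.08. At 30 months they were Rpl3l 0.03, Rps24 0.16, Rps29 0.07, Rpl35a 0.11, Rps28 0.12, Rpl31 0.06, Rps13 0.18 and Rpl24 0.10. With limma on TPM (either pseudocount), 82 of the 83 genes were above 0 at 30 months. The called genes just named had values of Rpl3l 0.01, Rps24 0.12, Rps29 0.02, Rpl35a 0.07, Rps28 0.05, Rpl31 0.00, Rps13 0.12 and Rpl24 0.07 there. By TPM the family held 5.71% (xNMJ) and 6.34% (NMJ) at 10 months, then 5.78% and 7.46% at 30 months.

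Scaled to the family, 8 genes lay above and 7 below at 10 months with the replicate block, and 1 and 1 with insert size, while at 30 months the block gave 3 above and 2 below. Of all 13990 genes, the same fits in the same order called 1643 above and 387 below, 1026 and 104, and 1196 and 347. Same-numbered libraries correlated between -0.0175 and 0.366, 5 of 16 pairs were over 0.1, and in 8 of 16 the own number correlated best, a hint of pairing from the data and not from the design. Whether same-numbered libraries come from 1 mouse is not settled, and they were treated as unpaired. With the replicate block 19 genes were lower at 10 months and 13 at 30 months, against 797 and 661 of all 13990 genes. The Rpl36al share at 30 months (12.1 points) passed by exact sign flips over same-numbered libraries. With CPM in place of TPM the Rpl7l1 share between ages in NMJ differed by -2.74 points and passed.

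Leaving out 1 library gave 0 to 1 higher genes at 10 months, 8 (without 10m NMJ replicate 4) to 18 lower genes at 10 months, and 4 (without 30m NMJ replicate 8) to 14 (without 30m xNMJ replicate 8) at 30 months. Of all tested genes, the fits named called 610 of 13903, 538 of 13855 and 612 of 13929 lower, in that order. Counts above the family ran from 1 to 7 and below from 2 to 6 at 10 months, and from 0 to 2 in either direction at 30 months. Differences in share ran from 5.81 to 10.8 points for Rpl22l1 between ages in xNMJ, from -8.04 to -4.61 for Rpl36al between ages in NMJ, from 9.55 to 14.6 for Rpl36al and from -14.3 to -10.7 for Rpl3l at 30 months, from 1.11 to 1.47 for Rpl7l1 at 10 months and from -1.24 to -0.907 for Rpl7l1 between ages in NMJ.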
